A study of Homo sapiens with 8 samples.

Results

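The genes described here are 44 interferon-stimulated genes, cytosolic nucleic acid sensors and IRF and STAT factors, chosen as the rows of the count table whose Ensembl identifiers map to a written list of symbols. They are 44 of the 58233 genes in the table, and the rule is the symbol alone. The RNA came from MCF10A-Hras cells, a non-tumorigenic human breast epithelial line transformed with the H-Ras oncogene. There were 4 groups of 2 libraries: control cells untreated, control cells 12 h after 5 Gy of ionizing radiation (IR) from an X-ray source, RBM6-KO1 cells untreated, and RBM6-KO1 cells 12 h after the same dose. RBM6 is an RNA-binding splicing factor, and RBM6-KO1 is 1 knockout clone made with a pair of guide RNAs and a Cas9 nickase, so an effect of the gene and one of the clone cannot be told apart. H-Ras and the medium, with horse serum, EGF, hydrocortisone, cholera toxin and insulin, were common to all 4 groups. The protocols name no added interferon. The design lets the genes be compared between genotypes with and without IR, and before and after IR within each genotype.

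In this pathway cGAS binds DNA in the cytosol and makes a cyclic dinucleotide, which activates STING on the endoplasmic reticulum, and STING recruits the kinase TBK1 to phosphorylate IRF3. RIG-I and MDA5 (RIGI and IFIH1 here) feed the same kinase from RNA. The type I interferons made in response act through their receptor on a complex with STAT2 and IRF9, which binds the interferon-stimulated response element (ISRE) of the antiviral genes. Micronuclei that irradiated cells leave after division are a known place of cGAS activation.

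Library totals ran from 15355281 to 29832009 counts, the highest in irradiated control replicate B. A count of 0 is compatible with up to 3 counts, which is 0.101 to 0.195 CPM (counts scaled to library size) here and covers counting error only. RBM6 was at 66.8 and 68.7 normalized CPM in control libraries without IR, against 61.4 and 63.1 for RBM6-KO1, and after IR at 54.5 and 48.9 against 44 and 33.9. Its genotype contrasts were log2 -0.14 (adjusted p = 0.712) and -0.40 (adjusted p = 0.535), so the gene-level count did not separate the genotypes by the test and does not read the edited exon. The p53 targets CDKN1A and GDF15 showed the radiation: GDF15 was at 60.1 and 67.0 in untreated and 406 and 380 normalized CPM in irradiated control cells, and at 40.3 and 39.3 against 310 and 302 in RBM6-KO1 cells. CDKN1A rose by log2 1.80 in control cells (adjusted p = 0.000536) and by 2.02 in RBM6-KO1 cells (adjusted p = 0.00051). These adjusted p-values, and all those below unless DESeq2 is named, come from the quasi-likelihood test of edgeR and are adjusted after Benjamini and Hochberg over all genes tested.

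The cells carried the keratins of basal breast epithelium, with the 9 listed epithelial markers summing to between 8950 and 14000 normalized CPM in every library. Of the 10 leukocyte markers, CD3E, MS4A1, CLEC4C and LILRA4 had no count in any library and PTPRC had at most 2. CD14 carried that list, whose sum was 12.2 to 19.1 normalized CPM in control and 3.82 to 6.07 in RBM6-KO1 libraries. The sum of the 7 fibroblast markers was 81.0 to 108 in control and 119 to 211 in RBM6-KO1 libraries and was carried by DCN, while COL1A2 and COL3A1 had at most 1 count in a library. The endothelial list of 5 ran from 6.11 to 12.4 in control and 4.27 to 7.27 in RBM6-KO1 libraries, with KDR at 65 to 309 counts in control and 0 to 19 in RBM6-KO1 libraries. These markers move with genotype, and their part in the member results was not tested.

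Many members carry promoter letters that their choice did not use. RefSeq start windows (GRCh38.p14, 250 bases before to 50 after a start) were at hand for 34 of the 44. An ISRE-like match, GAAA followed by any 2 bases and GAAA on either strand, lay in 22 of these 34 (64.7%), against 3.57% of all 35116 windows and 4.38% of the 27305 genes with a window. A match of the palindromic STAT-type letters, TTC followed by any 3 bases and GAA, lay in 10 (29.4%), against 7.66% of windows and 9.38% of genes, and matches of both kinds may overlap. The windows below belong to members that passed an adjusted p of 0.05 in some comparison. In untreated RBM6-KO1 cells BST2, IFI44L and SAMD9 were higher and ISG20, IFITM1 and IFITM3 lower. OAS3 and DTX3L passed for IR and not between genotypes. All hold the same pattern, with free bases that vary between genes. Any part of the matches in these changes was not tested. Each runs 5′ to 3′ on the gene's strand, and capitals mark the ISRE-like matches.
BST2, chr19:17405730-17405775, minus strand: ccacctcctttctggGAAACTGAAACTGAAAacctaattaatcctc
IFI44L, chr1:78620360-78620399, plus strand: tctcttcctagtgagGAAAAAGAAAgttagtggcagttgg
SAMD9, chr7:93118091-93118130, minus strand: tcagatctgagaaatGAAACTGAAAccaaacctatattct
ISG20, chr15:88638932-88638971, plus strand: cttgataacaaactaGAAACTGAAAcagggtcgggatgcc
IFITM1, chr11:313985-314043, plus strand: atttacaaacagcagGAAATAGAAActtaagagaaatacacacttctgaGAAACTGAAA
IFITM3, chr11:320871-320927, minus strand: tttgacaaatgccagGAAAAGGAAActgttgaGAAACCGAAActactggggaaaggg
OAS3, chr12:112938447-112938473, plus strand: cggagagccgggcggGAAAACGAAAcc
DTX3L, chr3:122564317-122564341, plus strand: gacctccagggaagcGAAACTGAAA

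The BST2 stretch holds 2 overlapping matches, which begin 130 and 124 bases before the start. Those of OAS3 and DTX3L begin 12 and 6 bases before it. SAMD9L, next to SAMD9 on chromosome 7, had a window with neither kind of match, and IFITM2 had no window. All of these matches begin upstream of the start, and those that begin 6 bases before it, in DTX3L and IFITM1, run past it. A match is a description of the letters and not a site shown to be bound.

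Most of the pathway was expressed, at very unequal levels. Per kilobase of annotated exon, the members of untreated control cells ran from IFITM3 at 201 and IFITM2 at 147 normalized CPM per kb, through BST2 at 54.3, IRF3 at 31.2, STING1 at 22 and IFI16 at 20.0, down to MX1 at 0.0328 and OAS2 at 0.0297. These are levels per length, with exon bases of all annotated transcripts joined. ISG15 at 9.93 and IFI6 at 9.28 were neighbours whose ranges over the 8 libraries overlapped (7.97 to 14.3 and 8.31 to 14.6), as were STAT2, DTX3L and PARP14 (3.89 to 6.49, 3.6 to 8.12 and 3.53 to 6.30). The cGAS gene stood at 5.35, with all libraries between 5.01 and 8.70. At the low end, XAF1 had 1 count in 1 library, RSAD2 (viperin) 0 to 4 counts, MX2 0 to 4 and CMPK2 2 to 13. These 4 passed the filter on low counts in no comparison. OAS2, with 1 to 25 counts, and IFITM1, with 3 to 33, passed it in only some.

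**Figure D1:**
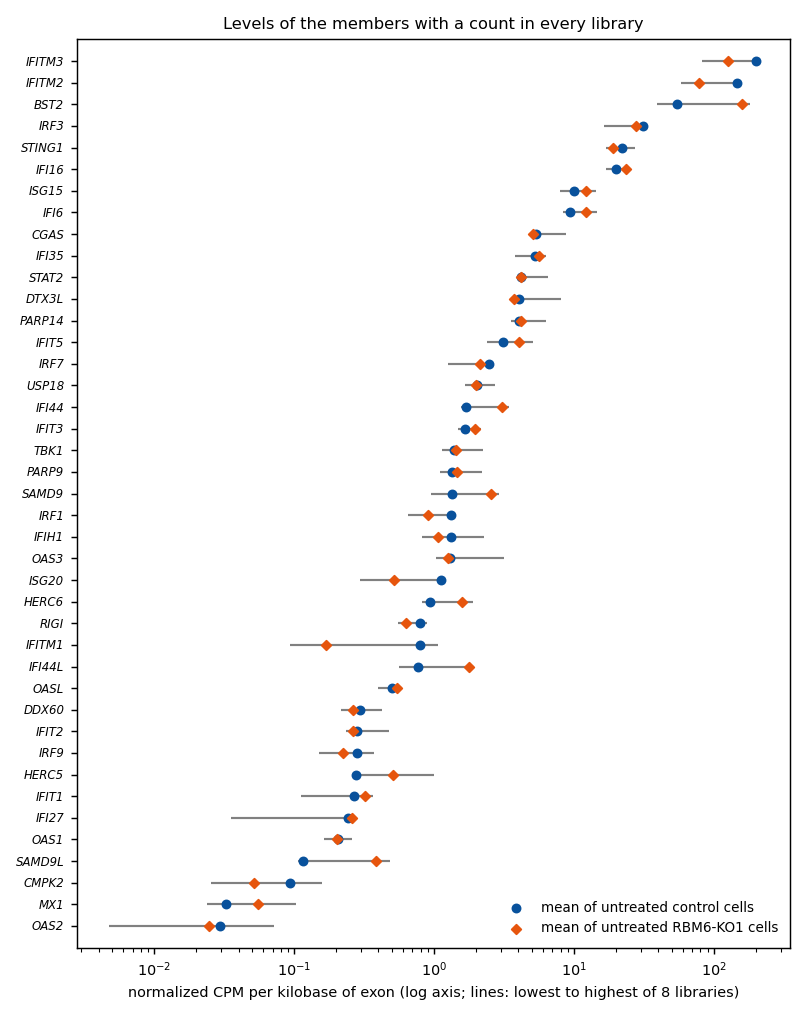
Level of 41 members with a count in every library, in normalized CPM per kilobase of exon on a log axis; circles are means of the 2 untreated control libraries, diamonds means of the 2 untreated RBM6-KO1 libraries, and grey lines run from the lowest to the highest of 8 libraries. The levels span from OAS2 to IFITM3, and the marks part most for IFITM1, SAMD9L, BST2, IFI44L and ISG20.

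Untreated RBM6-KO1 cells differed from control cells in members that went both ways. BST2, SAMD9L and IFI44L rose at least 2-fold and IFITM1 and ISG20 fell at least 2-fold, with SAMD9 higher and IFITM2 and IFITM3 lower by less. That is 5 of the 39 members tested (IFITM1 with few counts) at an adjusted p under 0.05 and a 2-fold change, where 3.12% of the 15556 genes tested were called. At any fold it is 8 of 39, 4 higher and 4 lower, against 6.12% of all genes, 2.38% higher and 3.73% lower. The median log2 fold change of the 39 was 0.04, beside 0.0072 over all genes, with 20 above 0 and 19 below. In bulk RNA, fewer expressing cells and less RNA per cell cannot be told apart.

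BST2 (chr19:17402939-17405630, minus strand, GRCh38 like all positions here) encodes tetherin, a membrane protein that holds budding enveloped viruses at the cell surface. It had 60.0 and 59.7 normalized CPM in untreated control libraries and 147 and 200 in untreated RBM6-KO1 libraries. Both knockout libraries were above both control libraries, and the log2 fold change was 1.52, with a standard error (SE) of 0.16 (adjusted p = 1.07e-05). After IR the values were 63.5 and 42.9 in control and 181 and 144 in RBM6-KO1 cells. Again the genotypes did not overlap (log2 fold change 1.62, SE 0.23, adjusted p = 0.0254). BST2 was called in both genotype comparisons under each of the 11 alternative analyses made of each (other scalings, filters, tests and left-out libraries).

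IFI44L (chr1:78619902-78646145, plus strand), an interferon-induced protein of incompletely known function, had 8.71 and 9.0 normalized CPM in untreated control and 18.6 and 22.5 in untreated RBM6-KO1 libraries. The knockout libraries were higher, with a log2 fold change of 1.2 (SE 0.21, adjusted p = 0.00147), called in all 11 alternatives. With the trend in GC content, length and expression removed the value was 1.03. Irradiated control libraries had 7.70 and 6.49 and irradiated RBM6-KO1 libraries 15 and 14.8. The groups stayed apart at log2 1.09, and the test was not passed (adjusted p = 0.0738). Its paralogue and neighbour IFI44 was at log2 0.85 untreated (adjusted p = 0.0893) and 0.47 after IR (adjusted p = 0.613).

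SAMD9 (chr7:93099513-93118023) and SAMD9L (chr7:93130056-93148385), both on the minus strand, are adjacent paralogues on chromosome 7 that restrict poxviruses and slow cell growth. SAMD9L had 0.981 and 0.857 normalized CPM in untreated control and 3.6 and 2.58 in untreated RBM6-KO1 libraries, from 16 and 16 against 64 and 38 counts. The log2 fold change was 1.74 (SE 0.40, adjusted p = 0.0117). Without untreated RBM6-KO1 replicate A the SAMD9L value was 1.46 and no longer passed (adjusted p = 0.0847), nor did it by DESeq2 (adjusted p = 0.0765). SAMD9 had 11.1 and 7.45 in control and 19.9 and 15 in RBM6-KO1 libraries, a log2 fold change of 0.91 (SE 0.24, adjusted p = 0.0286). It did not pass without untreated control replicate B (0.66, adjusted p = 0.235), without untreated RBM6-KO1 replicate A (0.67, adjusted p = 0.131) or with all 8 libraries in 1 fit (adjusted p = 0.131). After IR, SAMD9L was at 1.42 and 2.22 against 3.87 and 3.28, and SAMD9 at 6.53 and 11.2 against 16.0 and 14.2. Both genes were higher in each RBM6-KO1 library, with log2 fold changes of 0.94 (adjusted p = 0.339) and 0.76 (adjusted p = 0.377). With the trend in GC content, length and expression removed, the untreated values were 1.62 for SAMD9L and 0.70 for SAMD9.

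The members that fell in untreated RBM6-KO1 cells were the 3 IFITM genes and ISG20. The IFITM proteins sit in membranes and block viral fusion. The genes lie together on chromosome 11, IFITM2 at chr11:303655-309397 and IFITM1 at chr11:310041-315272 on the plus strand and IFITM3 at chr11:319676-329475 on the minus strand. They are so alike that reads may be shared among them, which makes their separate values uncertain. IFITM3 had 556 and 585 normalized CPM in untreated control and 297 and 419 in untreated RBM6-KO1 libraries, a log2 fold change of -0.69 (SE 0.16, adjusted p = 0.0111). It did not pass with all 8 libraries in 1 fit (adjusted p = 0.171) or without untreated control replicate B (adjusted p = 0.169). IFITM2 had 239 and 232 against 103 and 146, a log2 fold change of -0.93 (SE 0.16, adjusted p = 0.00112). For both, each knockout library was below each control library.

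IFITM1 had far fewer reads, 14 and 33 counts in untreated control and 4 and 5 in untreated RBM6-KO1 libraries (0.858 and 1.77 against 0.225 and 0.340 normalized CPM). Its log2 fold change was -2.24 (SE 0.62, adjusted p = 0.0367), and the ratio of control to knockout counts, scaled to library size, was 4.85 with an exact 95% interval of 2.35 to 11.3 for counting error. The call was made in 5 of the 11 alternatives, and DESeq2 gave an adjusted p of 0.255. Leaving out untreated control replicate B gave -1.60 (adjusted p = 0.658), untreated RBM6-KO1 replicate A -1.97 (adjusted p = 0.146) and untreated RBM6-KO1 replicate B -2.52 (adjusted p = 0.0559). Of its exon bases 21.1% also lie in another gene model on the same strand. After IR the IFITM1 counts were 10 and 28 against 3 and 4, a ratio of 4.64 with an interval of 2.05 to 12.3, and the fitted log2 fold change of -2.13 did not pass (adjusted p = 0.181). IFITM2 was then at 218 and 151 against 119 and 93.7 (log2 -0.78, adjusted p = 0.192) and IFITM3 at 511 and 339 against 319 and 234 (log2 -0.61, adjusted p = 0.4).

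ISG20 (chr15:88635670-88656483, plus strand) is an exonuclease that degrades single-stranded RNA. It had 8.09 and 7.98 normalized CPM in untreated control, 2.98 and 4.42 in untreated RBM6-KO1, 5.56 and 4.89 in irradiated control and 2.11 and 2.35 in irradiated RBM6-KO1 libraries. Within each treatment the knockout libraries were the lower ones. The untreated log2 fold change was -1.14 (SE 0.27, adjusted p = 0.0162) and the irradiated one -1.21 (adjusted p = 0.103). With the trend in GC content, length and expression removed these were -0.995 untreated, a fold just under 2, and -1.01 after IR. Without untreated RBM6-KO1 replicate A the untreated value was -0.89 (adjusted p = 0.0871).

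**Figure D2:**
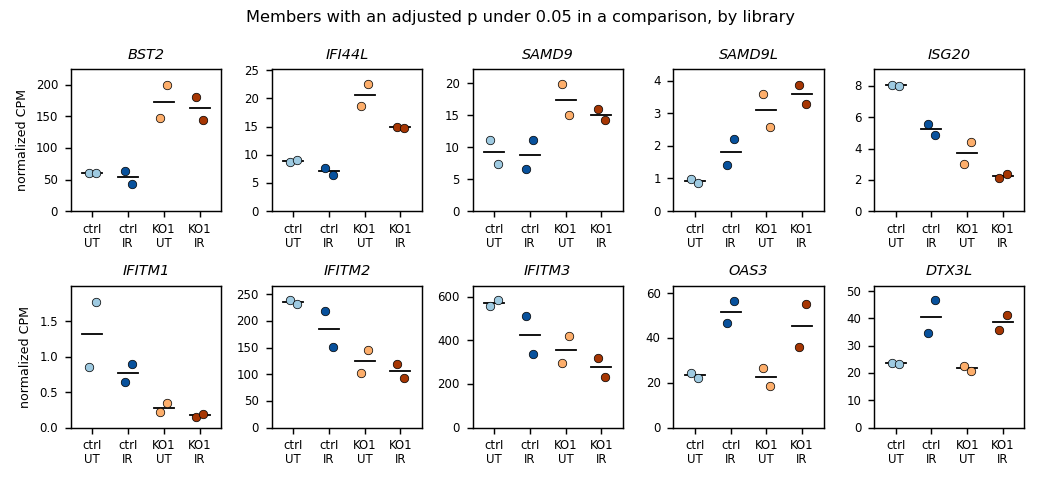
Normalized CPM of the 10 members with an adjusted p under 0.05 in a comparison, in each library; points are libraries, lines are means of 2, and UT is untreated. BST2, IFI44L, SAMD9 and SAMD9L sit higher and ISG20 and the IFITM genes lower in RBM6-KO1 cells, while OAS3 and DTX3L sit higher after IR in both genotypes.

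After IR, BST2 alone of the 40 members tested was called between the genotypes, where 1.17% of the 15587 genes were called with a 2-fold change and 1.21% at any fold. The median log2 fold change of the 40 was -0.07, beside 0.0151 over all genes. DESeq2 called 2 members, BST2 and IFI44L. The number was 4 with the replicate letter as a block (BST2, IFI44L, IFITM1 and ISG20) and 4 without irradiated control replicate B (BST2, IFITM2, ISG20 and SAMD9). The untreated and irradiated genotype comparisons share no library. The interferon-induced mitochondrial protein gene IFI27 was at 0.841 and 0.514 normalized CPM in irradiated control and 0.567 and 0.147 in irradiated RBM6-KO1 libraries. Those values overlapped (log2 -0.86, adjusted p = 0.767).

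**Figure D3:**
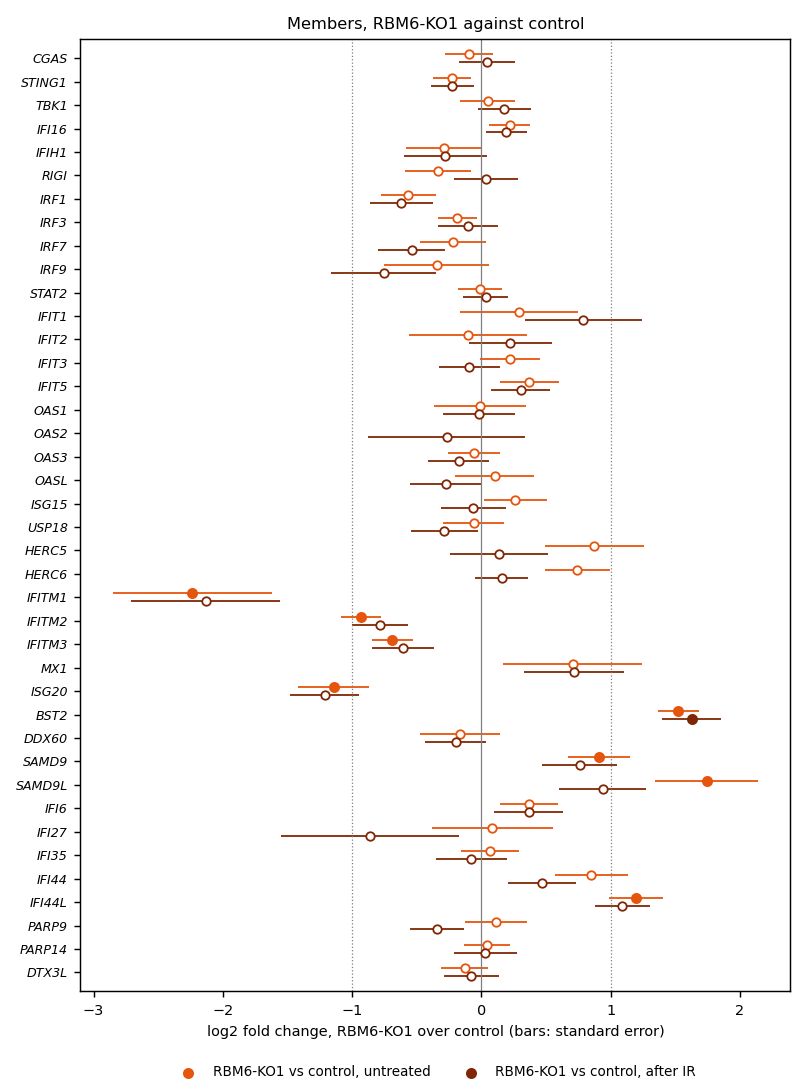
Log2 fold change, RBM6-KO1 over control, with its standard error, for the 40 members tested in at least 1 of these comparisons; light marks are untreated and dark marks irradiated cells, filled where the adjusted p is under 0.05, and dotted lines mark a 2-fold change. Filled marks are BST2 in both, and IFI44L, SAMD9, SAMD9L, ISG20 and the 3 IFITM genes in untreated cells; the sensors, factors, IFIT and OAS genes have open marks.

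The sensing and signalling genes passed the test in neither genotype comparison. Across the 6 sensors, adaptor and kinase the smallest unadjusted p was 0.14 untreated and 0.224 after IR. CGAS had 22.2 and 22.4 normalized CPM in untreated control, 29.0 and 32.3 in irradiated control, 20.9 and 21.3 in untreated RBM6-KO1 and 26.6 and 36.3 in irradiated RBM6-KO1 libraries. Its untreated genotype contrast was log2 -0.10 (SE 0.18). STING1, the adaptor, had 105 and 105, 131 and 110, 81.3 and 101, and 110 and 94.6 in the same order, with a genotype contrast of -0.23 (SE 0.15) untreated and -0.22 (SE 0.17) after IR. TBK1, the kinase, had 24.2 and 16.6, 24.0 and 29.5, 23.2 and 19.2, and 27.6 and 32.7, with contrasts of 0.05 and 0.18. For these 3 genes the standard errors were smaller than those of the low-count effectors, and the contrasts lay within 0.25 of 0.

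No factor of the 5 passed either. All 5 were below 0 untreated (median -0.22) and 4 of 5 after IR (median -0.54). Over all genes, 51% lay above 0 untreated and 52.3% after IR. With the trend in GC content, length and expression removed, IRF3, IRF7 and STAT2 were at -0.01, 0.0028 and 0.08 untreated. After IR they were at 0.02, -0.34 and 0.15. IRF1 and IRF9 stayed below 0, at -0.43 and -0.15 untreated and -0.48 and -0.52 after IR. Of the 5, IRF1, which drives genes of the interferon-gamma response, had the smallest p. It was at log2 -0.56 untreated (adjusted p = 0.15) and -0.62 after IR (adjusted p = 0.411). IRF3, the factor that STING signalling activates, had 111 and 126 normalized CPM in untreated control, 93.8 and 64.1 in irradiated control, 92.2 and 118 in untreated RBM6-KO1 and 83.5 and 62.4 in irradiated RBM6-KO1 libraries. IRF7, which amplifies interferon production, had 6.38 and 6.48, 5.43 and 4.40, 5.06 and 6.11, and 3.40 and 3.28. IRF9, which binds DNA in a complex with STAT2, had 1.59 and 2.04, 1.49 and 2.41, 1.52 and 1.36, and 0.979 and 1.37. STAT2 had 36.7 and 41.2, 51.7 and 59.6, 41.8 and 36.2, and 53 and 60.4, with genotype contrasts of -0.01 and 0.03. Of IRF9's exon bases 23.9% lie in a second gene model on its strand, and of IRF3's 19.3% face BCL2L12 on the other strand.

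Of the classical effectors, IFIT1 and MX1 were low, and IFIT1, MX1 and ISG15 were without a genotype call. IFIT1, which binds viral RNA ends, had 26 and 16 counts in untreated control, 8 and 32 in irradiated control, 30 and 19 in untreated RBM6-KO1 and 26 and 30 in irradiated RBM6-KO1 libraries. MX1, a GTPase against RNA viruses, had 7 and 14, 13 and 36, 17 and 15, and 29 and 38 counts. These counts are not scaled to library size, and irradiated control replicate B was the deepest library. In irradiated control cells IFIT1 was at 0.517 and 1.03 and MX1 at 0.841 and 1.16 normalized CPM. The log2 fold changes of MX1 between genotypes were 0.71 (adjusted p = 0.552) and 0.72 (adjusted p = 0.59). ISG15, a ubiquitin-like modifier, had 7.79 and 9.43, 9.38 and 6.91, 8.60 and 12.4, and 8.45 and 6.95 normalized CPM in the same group order, with contrasts of 0.26 (adjusted p = 0.644) and -0.06 (adjusted p = 0.979). The HERC ligases HERC6 and HERC5 were at log2 0.74 (adjusted p = 0.0978) and 0.87 (adjusted p = 0.221) in untreated cells and 0.16 and 0.14 after IR. None of the 4 IFIT genes and none of the OAS genes tested passed between genotypes.

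In control cells, OAS3 was the single member that rose after IR by the test. This synthetase (chr12:112938051-112976460, plus strand) makes short oligoadenylates when it binds double-stranded RNA. It had 24.3 and 22.3 normalized CPM untreated and 46.5 and 56.7 after IR, with both irradiated libraries higher (log2 fold change 1.14, SE 0.20, adjusted p = 0.0106). It was called in 9 of the 11 alternatives. Without untreated control replicate B the adjusted p was 0.0768 and, without irradiated control replicate B, the fold was just under 2 (log2 0.99). With the GC trend removed it was 0.89. This was 1 of 40 members tested, at either fold rule, against 3.59% of the 15412 genes with a 2-fold change and 5.72% at any fold. The share of members called, 2.50%, is below both.

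Of the 40 members tested in control cells, 11, OAS3 among them, had an unadjusted p under 0.05, where 25.4% of all genes did. The members below did not pass in the main analysis. HERC5 had 1.23 and 1.39 normalized CPM untreated and 2.46 and 4.31 after IR (log2 1.38, SE 0.38, adjusted p = 0.0543). It was called in 5 of the 11 alternatives, those with 2 other scalings, with no filter, with the replicate block and without irradiated control replicate A. DTX3L, a ubiquitin ligase recruited to DNA breaks with its partner PARP9, had 23.7 and 23.3 against 34.5 and 46.8 (log2 0.78, adjusted p = 0.0515). PARP9 was at 0.68 (adjusted p = 0.114), HERC6 at 0.82 (adjusted p = 0.0785) and SAMD9L at 1.01 (adjusted p = 0.165). PARP9 (chr3:122527924-122564577, minus strand) and DTX3L (chr3:122564338-122575203, plus strand) are divergent neighbours whose 5′ ends overlap.

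The members with the lowest folds in irradiated control cells did not pass. IFITM1 was at log2 -0.74 (adjusted p = 0.348), and IFI27 had 1.10 and 0.911 normalized CPM untreated and 0.841 and 0.514 after IR (log2 -0.64, adjusted p = 0.426). ISG20 was also at -0.64 (adjusted p = 0.152), with each irradiated library below each untreated one. IRF3 was at -0.60 (adjusted p = 0.0913). The median log2 fold change of the 40 tested was 0.20, beside 0.0167 over all genes. With the trends in GC content, length and expression removed it was 0.12. Log2 fold changes here were lower at higher GC content (rho -0.26 by Spearman over 15309 genes, not replicates), and the members tested were poorer in GC than all genes (medians 44% and 47.9%).

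In RBM6-KO1 cells no member of the 38 tested passed with a 2-fold change after IR, where 3.11% of 15598 genes did. At any fold OAS3 and DTX3L rose, 2 of 38 members (5.26%) against 5.67% of all genes. Of the 38, 10 had an unadjusted p under 0.05, where 29.6% of all genes did. DESeq2 called 1 of the members, OAS3, and 445 of all genes. OAS3 had 26.4 and 18.6 normalized CPM untreated and 36.1 and 55.0 after IR (log2 0.998, SE 0.24, adjusted p = 0.0473), a fold just under the limit. DTX3L had 22.5 and 20.8 against 35.9 and 41.1 (log2 0.81, SE 0.17, adjusted p = 0.035). For both genes the irradiated libraries were the higher ones. Without irradiated RBM6-KO1 replicate B OAS3 was at 0.67 (adjusted p = 0.118) and DTX3L at 0.73 (adjusted p = 0.0805). Without untreated RBM6-KO1 replicate B they were at 0.78 (adjusted p = 0.134) and 0.77 (adjusted p = 0.161), and with the replicate block DTX3L had an adjusted p of 0.0583.

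Other members of irradiated RBM6-KO1 cells are given by their values. HERC5 had 2.42 and 2.45 normalized CPM untreated and 2.83 and 4.75 after IR (log2 0.63, adjusted p = 0.24). STAT2 was at log2 0.52 (adjusted p = 0.0808), CGAS at 0.56 (adjusted p = 0.102) and TBK1 at 0.49 (adjusted p = 0.124). In irradiated control cells the same genes were at 0.50 (adjusted p = 0.117), 0.45 (adjusted p = 0.186) and 0.39 (adjusted p = 0.327). IFIT2, of the IFIT family, had 22 and 15 counts untreated and 35 and 42 irradiated (log2 0.75, adjusted p = 0.229), and MX1 was at 0.75 (adjusted p = 0.257). IFI27 had 20 and 15 counts untreated and 11 and 3 after IR (log2 -1.60, adjusted p = 0.13), a ratio of untreated to irradiated of 3.06 with a counting interval of 1.61 to 6.16. IRF7 was at -0.75 (adjusted p = 0.0967) and ISG20 at -0.73 (adjusted p = 0.162). ISG15 was at -0.46 in RBM6-KO1 cells (adjusted p = 0.24) and -0.10 in control cells (adjusted p = 0.839). With the trend in GC content, length and expression removed, ISG15 was at 0.01 in RBM6-KO1 and 0.31 in control cells. The median of the 38 was 0.06, beside -0.0059 over all genes.

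**Figure D4:**
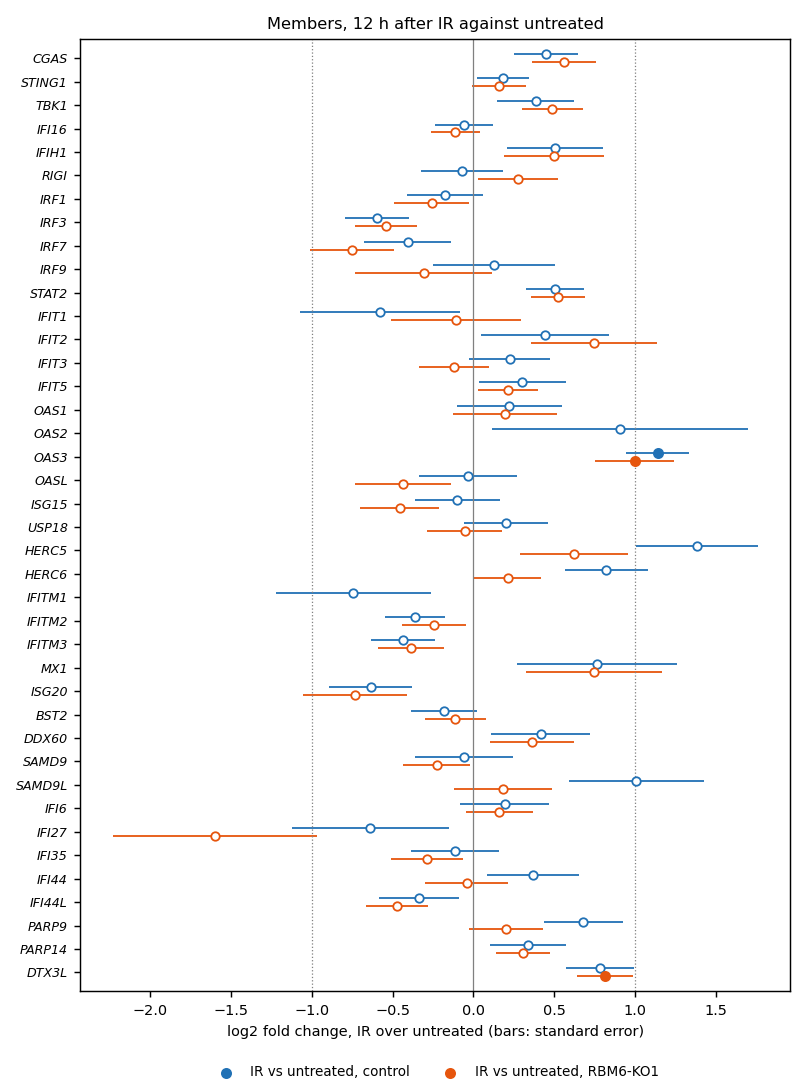
Log2 fold change, 12 h after IR over untreated, with its standard error, for the 40 members tested in at least 1 genotype; blue marks are control and orange marks RBM6-KO1 cells, filled where the adjusted p is under 0.05, and dotted lines mark a 2-fold change. OAS3 is filled in both genotypes and DTX3L in RBM6-KO1 cells. IFI27, ISG20 and the IFITM genes lie to the left with open marks, IFITM1 in control cells only. With the trend in GC content, length and expression removed (not drawn), IFITM2 and IFITM3 were at -0.05 and -0.07 in control cells. In RBM6-KO1 cells they were at 0.08 and -0.02. IFI27 and ISG20 stayed below 0 in both genotypes, and IFITM1 in control cells.

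The test of whether the response to IR differed between genotypes called no member and no gene, 0 of 40 and 0 of 16549 (0%). None of the 40 members had an unadjusted p under 0.05, where only 1.85% of all genes did. DESeq2 called no member and no gene. The smallest p was that of HERC6 (0.064), whose response was log2 0.60 lower in RBM6-KO1 cells, with a standard error of 0.29. HERC6 had 6.07 and 4.77 normalized CPM in untreated control, 9.83 and 9.45 in irradiated control, 9.78 and 8.42 in untreated RBM6-KO1 and 10.4 and 11 in irradiated RBM6-KO1 libraries. Untreated control cells were thus the low group. The difference in OAS3 response was -0.13 (SE 0.33) and that of DTX3L 0.03 (SE 0.26). At these SEs, with adjustment over 16549 genes, the lack of a call does not show that the responses were equal. The smallest difference that could be detected in a single member was not tested.

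Of the signals upstream and downstream of the members, the interferon ligands and the chemokines CXCL9, CXCL10, CXCL11 and CCL5 were sparse. IFNB1, the interferon that IRF3 induces, had no count in any of the 8 libraries, nor had IFNW1, IFNG, IFNL2 or IFNL3. IFNA1 had at most 2 counts, and IFNK and IFNL1 at most 1. IFNE, an interferon made constitutively by epithelia, was the 1 ligand tested, with 9 and 19 counts in untreated control, 8 and 28 in irradiated control, 35 and 22 in untreated RBM6-KO1 and 16 and 13 in irradiated RBM6-KO1 libraries. No IFNE comparison passed, the nearest being IR in RBM6-KO1 cells (log2 -1.26, adjusted p = 0.102). CXCL10, a chemokine that interferons induce, had no count in any library, and CXCL9, CXCL11 and CCL5 had at most 2. The receptor chain IFNAR1 was present at 35.9 and 42.1 normalized CPM in untreated control, 46.8 and 58.3 in irradiated control, 49.1 and 48.2 in untreated RBM6-KO1 and 59.2 and 63.4 in irradiated RBM6-KO1 libraries. None of the 6 receptor genes passed in any comparison. By DESeq2 IFNLR1 passed between irradiated genotypes (log2 -1.60, adjusted p = 0.0336) and IFNGR1 after IR in RBM6-KO1 cells (log2 0.65, adjusted p = 0.0163), both named after their values were seen.

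Among other genes of the pathway, those that passed in untreated RBM6-KO1 cells were mostly lower. Of 99 tested from lists of receptors, signalling, sensors, nucleic acid turnover, other interferon-stimulated genes, class I antigen presentation and chemokines, 16 fell and 1 rose at any fold, with a median log2 fold change of -0.15. Over all genes 3.73% were lower and 2.38% higher, with a median of 0.0072. LAMP3, a lysosomal protein of maturing dendritic cells, had 4.48 and 4.12 normalized CPM in untreated control and 0.787 and 0.611 in untreated RBM6-KO1 libraries (log2 -2.61, SE 0.38, adjusted p = 0.000306). SOCS3, a feedback inhibitor of cytokine receptors that STAT3 induces, had 5.82 and 6.0 against 1.46 and 2.04 (log2 -1.78, adjusted p = 0.0016), and STAT3 itself 132 and 148 against 94.3 and 99.1 (log2 -0.55, adjusted p = 0.0261). GBP2, a GTPase against intracellular pathogens, had 20.6 and 27.5 against 9.33 and 10.7 (log2 -1.28, adjusted p = 0.000977). In each of these genes both knockout libraries lay below both control libraries. The genes were picked because they passed on the same libraries, so this is no separate support.

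The other interferon-stimulated genes that fell were LGALS3BP (287 and 322 against 138 and 169 normalized CPM, log2 -1.01), TRIM22 (24.9 and 20.2 against 11.6 and 11.3, log2 -0.98), TNFSF10, which encodes the death ligand TRAIL (1.72 and 1.45 against 0.337 and 0.340, log2 -2.21), and HELZ2 (47.9 and 50.2 against 36.1 and 28.1, log2 -0.62). Among sensors and factors, IRF5 fell from 15.1 and 15.7 to 7.81 and 6.93 (log2 -1.07) and the RIG-I ligase TRIM25 from 89.1 and 121 to 59.3 and 62.9 (log2 -0.80). The 1 gene that rose was ZC3HAV1, the zinc finger antiviral protein, from 54.3 and 42.3 to 73.3 and 77.3 (log2 0.63, adjusted p = 0.0241). The chemokine CXCL16 fell from 7.42 and 8.57 to 4.33 and 2.79 (log2 -1.17, adjusted p = 0.0175).

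Class I antigen presentation had 5 genes lower and none higher among its 17, and 15 of the 17 lay below 0. Of all genes 3.73% passed as lower, and 51% lay above 0. The 5 were HLA-B (206 and 224 against 123 and 135 normalized CPM, log2 -0.75), HLA-C (252 and 231 against 177 and 171, log2 -0.48), the peptide transporter TAP1 (39.6 and 42.5 against 29.4 and 21.9, log2 -0.69), the proteasome activator PSME1 (108 and 118 against 75.4 and 81.1, log2 -0.54) and NLRC5, the class I transactivator (15.1 and 18.3 against 8.77 and 9.71, log2 -0.87). HLA genes are alike and variable between people, so their reads may be divided. Between genotypes, log2 fold changes were lower at higher GC content (rho -0.29 by Spearman untreated and -0.31 after IR, over genes and not replicates). This trend was not removed from the values of the 99 pathway genes, and its part in them was not tested. After IR none of the 17 passed, and DESeq2 called none. Of them 3 had an unadjusted p under 0.05, where 11.1% of all genes did. Of the 17, 14 lay below 0, where 52.3% of all genes lay above 0. Of all 99 genes, 2 (2.02%) passed after IR, beside 1.21% of all genes tested, LAMP3 at 7.31 and 7.27 against 1.13 and 1.37 (log2 -2.53, adjusted p = 0.012) and SOCS3 at 5.11 and 5.56 against 1.44 and 1.32 (log2 -1.94, adjusted p = 0.0302).

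**Figure D5:**
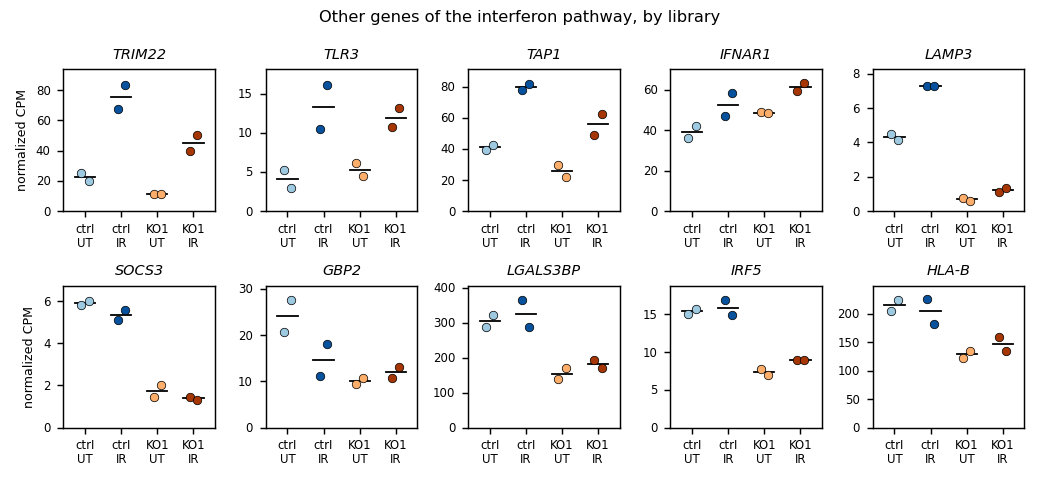
Normalized CPM of 10 other pathway genes in each library; points are libraries, lines are means of 2, and UT is untreated. TRIM22, TLR3 and TAP1 sit higher after IR in both genotypes; LAMP3, SOCS3, LGALS3BP and IRF5 sit lower in RBM6-KO1 cells with and without IR.

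Irradiation raised a small set of these genes. In control cells TRIM22, a restriction factor and p53 target, rose to 67.7 and 83.3 normalized CPM after IR (log2 1.74, adjusted p = 0.00171), and in RBM6-KO1 cells to 39.9 and 50.5 (log2 1.96, adjusted p = 0.0022). TLR3, the endosomal sensor of double-stranded RNA, went from 5.27 and 2.95 to 10.5 and 16.1 in control (log2 1.71, adjusted p = 0.0155) and from 6.18 and 4.42 to 10.7 and 13.1 in RBM6-KO1 cells (log2 1.14, adjusted p = 0.0358). TAP1 rose to 77.8 and 81.5 (log2 0.95, adjusted p = 0.0117) and to 49.1 and 62.6 (log2 1.10, adjusted p = 0.0228). In these 3 genes every irradiated library was above the untreated libraries of its genotype. They were picked because they passed on the same libraries, so this is no separate support.

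In RBM6-KO1 cells TRIM5 (13.3 and 9.99 to 22.6 and 27.6, log2 1.09), PLSCR1 (15.9 and 12.0 to 22.5 and 30, log2 0.90) and ERAP1 (11.4 and 10.1 to 17.2 and 23.9, log2 0.91) also rose. TRIM5, PLSCR1 and ERAP1 were at 0.80, 0.62 and 0.75 in control cells without passing. LRRFIP1, a nucleic acid sensor, fell in control cells from 237 and 196 to 128 and 126 (log2 -0.78, adjusted p = 0.0218) and in RBM6-KO1 cells from 212 and 307 to 154 and 129 (log2 -0.89, adjusted p = 0.0376). TRIM56, which modifies STING, fell in control cells from 159 and 174 to 107 and 84.7 (log2 -0.81, adjusted p = 0.0239) and was at -0.78 in RBM6-KO1 cells (160 and 213 against 130 and 89.9, adjusted p = 0.0562). In all, 6 of 99 pathway genes passed in control and 9 of 98 in RBM6-KO1 cells at any fold, 6.06% and 9.18% beside the 5.72% and 5.67% of all genes.

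NF-kB, which STING and the RNA sensors also feed, has a list of targets of its own here. Of 17 tested in untreated cells 7 rose and 1 fell in RBM6-KO1 cells, beside 2.38% higher and 3.73% lower of all genes. The rest of the 17 did not pass. Whatever the test, 12 of the 17 lay above 0 and 5 below. This list was chosen with earlier results of these data known, so its shares are no independent support. The neutrophil chemokines CXCL3 (63.0 and 65.4 against 165 and 139 normalized CPM, log2 1.24), CXCL2 (50.6 and 41.8 against 111 and 98.0, log2 1.17) and CXCL1 (391 and 347 against 652 and 737, log2 0.90) rose, as did CCL20 (232 and 251 against 488 and 455, log2 0.95), the adaptor TRAF1 (0.920 and 1.45 against 3.88 and 2.92, log2 1.5), TNFAIP3 (60.4 and 52.4 against 111 and 72.4, log2 0.69) and BIRC3 (78.8 and 62.5 against 92.6 and 118, log2 0.56). The adhesion molecule ICAM1 fell (58.6 and 58.3 against 43.8 and 29.3, log2 -0.68). After IR, 4 of 16 passed at any fold, where 1.21% of all genes did, and all 4 were higher: CXCL3 (48.2 and 57.5 against 149 and 150, log2 1.51), CXCL2 (39.5 and 36.9 against 99.1 and 90.1, log2 1.32), CXCL1 (305 and 300 against 660 and 680, log2 1.15) and CCL20 (278 and 274 against 600 and 642, log2 1.18). Irradiation raised CXCL8 in RBM6-KO1 cells (674 and 439 to 1010 and 1500, log2 1.16, adjusted p = 0.0307) and lowered BIRC3 there (to 66.2 and 65.6, log2 -0.69, adjusted p = 0.0451). In control cells no gene of the list passed after IR. Of the 17 tested, 3 had an unadjusted p under 0.05, where 25.4% of all genes did. TNFAIP3 had the smallest (0.00461, log2 0.67, adjusted p = 0.061) and passed by DESeq2 (log2 0.69, adjusted p = 0.03), under 2-fold.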

How the data were processed

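RNA-seq of 8 libraries was used (TruSeq mRNA kit, paired-end). The authors deposited raw counts per Ensembl gene, with hg38 as the genome. The submitters' processing notes name STAR and DESeq2 without a version, and the counting tool, annotation and strandedness are not given in the sources used here. Symbols, positions and exon lengths came from GENCODE v44 (57392 of 58233 identifiers matched, 841 did not). Of 225 list names, 3 were not matched.

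Each pairwise comparison used its own 4 libraries, TMM factors, filterByExpr and the two-sided quasi-likelihood test of edgeR 4.0.16 (limma 3.58.1, R 4.3.3), adjusted over all genes tested. A call needed an adjusted p under 0.05 and a 2-fold change. The interaction used 8 libraries, as did the TMM factors of normalized CPM. The SE is the size of the log2 fold change over the square root of F. The code was first tested on simulated counts.

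Members and lists were chosen with earlier results of these data known. Their shares beside those of all genes are therefore descriptions and no independent support. Values per library are given for members at an adjusted p under 0.05, core pathway genes, the 3 largest folds each way per comparison, and passing pathway genes. For genes named because they passed, groups that do not overlap restate the same values and are no further support. Some genes of the lists enter the counts but are not reported here by name. The series calls the libraries biological replicates, and p-values measure the spread between 2 a group, which differed beyond sampling noise (chi-square per degree of freedom 11.3 to 34.1).

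Alternatives were 2 scalings, DESeq2 1.42.0, 2 filters, no fold limit, a replicate block, 1 fit of all libraries, each library left out (the lone one assumed to vary like the others) and a spline in GC content, length and expression removed.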

Additional observations from a re-analysis of the deposited data

How the results depend on the processing

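No member at an adjusted p under 0.05 changed direction in a refit. With the spline in GC content, length and expression removed, 23 of 157 member values changed sign, none of them at an adjusted p under 0.05 (smallest 0.24). Log2 fold changes of members at an adjusted p under 0.05 kept that side in 112 refits and lost it in 19, and those of the other genes named in 451 and 75. Between untreated genotypes, against 5 members called, DESeq2 called 3 (BST2, IFI44L and ISG20), the adjusted p alone 8, and leaving out 1 library 2 to 7. After IR, against 1, DESeq2 called 2, no filter 3, all 8 libraries in 1 fit 3, and leaving out 1 library 1 to 4. For IR in control cells, against 1, the DESeq2 size factors, the upper-quartile factors and no filter each called 2 (HERC5 added), and leaving out 1 library 0 to 4: none without untreated or irradiated control replicate B, 4 without irradiated control replicate A (DTX3L, HERC5, OAS3 and SAMD9L). For IR in RBM6-KO1 cells, against 0, the DESeq2 size factors, DESeq2, no filter and all 8 libraries in 1 fit each called 1 (OAS3), the adjusted p alone 2, and leaving out 1 library 0 to 2. The interaction stayed at 0 in all alternatives run. The cause of these moves was not tested.

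The replicate letters A and B do not say that libraries of different groups were prepared together, and the deviations of same-lettered libraries correlated at 0.149 between untreated genotypes and 0.547 between irradiated genotypes, and between -0.435 and -0.175 across treatments. With 2 letters these values cannot settle pairing, so the letters were not taken as pairs. With the replicate block the count after IR was 4 and that of IR in control cells 2. The block left the untreated count at 5, that of IR in RBM6-KO1 cells at 0 and the interaction at 0.

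With 2 libraries a group, and 1 clone, small changes of low members (OAS2, MX1, IFIT1, IFI27, IFITM1) were not detectable. Medians of the members changed sign with single libraries left out: untreated to -0.10 without replicate B of control or replicate A of RBM6-KO1 cells, after IR to 0.10 without replicate B of control and 0.04 without replicate A of RBM6-KO1 cells. The spline took the median of IR in RBM6-KO1 cells from 0.06 to -0.0015.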
